A study of Mus musculus with 6 samples.

Results

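The 10 genes described here encode proteins that fuse mitochondria (Mfn1, Mfn2 and Opa1), divide them (Dnm1l, Fis1 and Mff) or mark them for removal by mitophagy (Pink1, Fundc1, Bnip3 and Bnip3l). They were taken by gene symbol from the deposited expression table, and all 10 were found among its 54532 genes. Messenger RNA from the hearts of 3 Mc4r KO mice and 3 WT mice, all male and 12 weeks old, was sequenced with 1 library per mouse to compare heart gene expression before cardiac function declines. The Mc4r KO mice were homozygous knockouts of the melanocortin-4 receptor, and the WT mice were their littermates. Both came from heterozygous parents on the C57B/6/N background and were fed standard chow. Mice of the study were anaesthetized with tribromoethanol before the hearts were taken, and with isoflurane for echocardiography. No other treatment is described. The whole animal lacked the receptor, so an effect of its loss in the heart cannot be told apart from effects of its loss in other organs. The labels give the tissue as heart but title the samples muscle, and the study also speaks of the left ventricle. Values are FPKM, that is, fragments counted on a gene after division by its exonic length and by a size of the library. That size was scaled by the authors and is not the plain total of reads.

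Mitochondria in heart muscle are packed between the contractile fibres, and their shape is set by opposing membrane reactions. The mitofusins Mfn1 and Mfn2 join outer membranes and Opa1 joins inner membranes, while the GTPase encoded by Dnm1l constricts the organelle at sites where adaptors such as Mff and Fis1 sit. Damaged mitochondria are cleared by mitophagy, either after the kinase Pink1 builds up on their surface and starts their tagging with ubiquitin, or through the outer membrane receptors Fundc1, Bnip3 and Bnip3l, which bind the growing autophagosome directly. Bnip3 is a classical target of the hypoxia-inducible factor HIF-1, and Bnip3l, also called Nix, is known for clearing mitochondria from maturing red cells.

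The depth was similar in all libraries, with 14691076 to 16047003 reads counted on genes. Each of the 10 genes had between 330 and 14161 reads in each library, and all 10 passed the filter for testing, a mean of at least 0.1 FPKM, which left 18035 genes. Reads on Mc4r itself, 0 in 5 libraries and 2 in WT replicate 3, were too few to check the genotype. The share of FPKM on the mitochondrial chromosome was higher in WT (59.3%, 57.4% and 47.1%) than in Mc4r KO (43.6%, 46.6% and 43.0%). WT replicate 3 stood apart from the other libraries in its atrial markers. It had a summed FPKM of 798 over 5 atrial markers, against 6.29 to 137 in the other 5 libraries. In the mitochondrial share, WT replicates 1 and 2 stood apart instead, and WT replicate 3 was nearer the Mc4r KO libraries. Its log2 FPKM correlated at 0.962 with Mc4r KO replicate 1, and at 0.946 and 0.952 with WT replicates 1 and 2. Without WT replicate 3 the number of genes called between the groups changed from 83 to 726. That fit keeps only the WT libraries with the highest mitochondrial share. Cardiomyocyte markers were abundant in every library, while 6 of 7 skeletal muscle markers stayed under 1 FPKM in all libraries. Of 6 adipocyte markers, Adipoq, Plin1, Cidec, Cfd and Ucp1 also stayed under 1 FPKM. The leading marker of that list, Fabp4, was at 90.5 to 135 FPKM.

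None of the 10 genes was called different between Mc4r KO and WT hearts. A call needed an adjusted p under 0.05 in limma together with an absolute log2 fold change above 0.75, a 1.68-fold change. Of all genes tested, 83 met it, or 0.460%. The fold changes of the 10 genes lay between 0.751 and 1.36, and the 95% interval of 9 of them stayed inside the threshold in both directions. Only the interval of Bnip3 crossed it. An unadjusted p under 0.05 was reached by 4 of the 10 genes, against 20.9% of all genes tested. The same 4 genes were those in which the 3 Mc4r KO values did not overlap the 3 WT values. Bnip3, Fis1 and Mfn1 were higher in every Mc4r KO library than in any WT library, a pattern found in 14.1% of all genes tested and in 33.5% of the genes with a mean of at least 10 FPKM, to which all 10 belong. Bnip3l was lower in every Mc4r KO library, a pattern found in 12.4% of all genes and in 8.79% of those with at least 10 FPKM. The limit of 10 FPKM was chosen after seeing the data. These shares leave no result about the 10 genes as a group, whose median log2 fold change of 0.088 stands beside -0.011 for all genes tested.

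**Figure D1:**
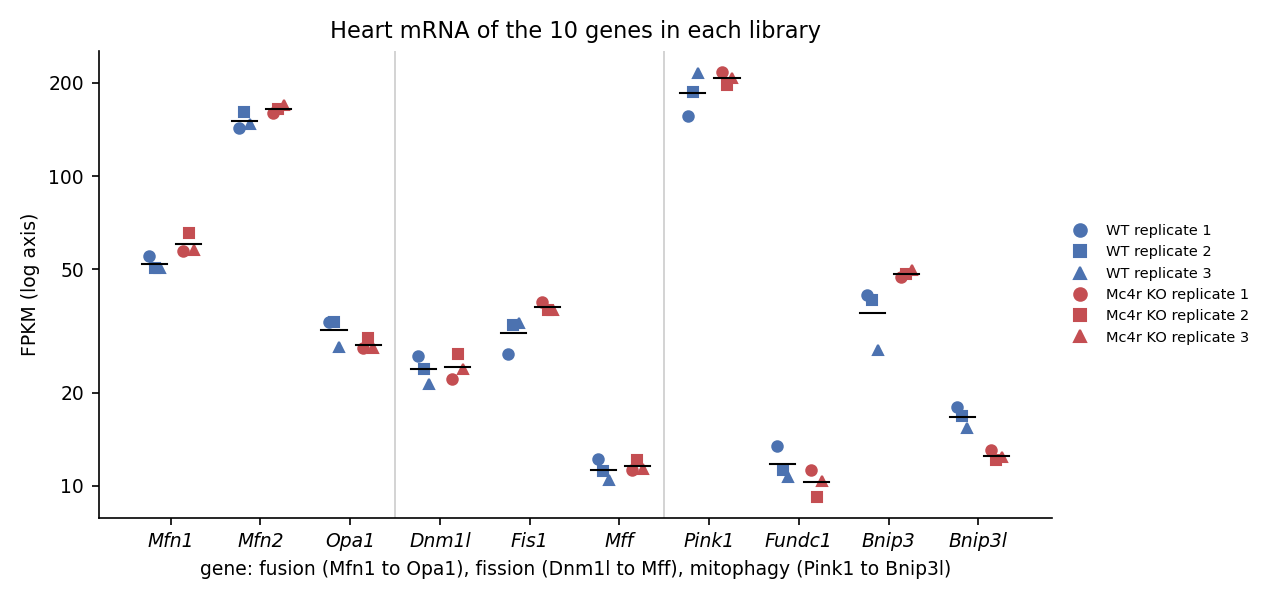
FPKM (log axis) of the 10 genes in each of the 6 libraries, ordered as fusion, fission and mitophagy genes, with WT libraries in blue, Mc4r KO libraries in red, a symbol for each replicate number and a line at each group mean. The red points of Bnip3, Fis1 and Mfn1 lie above all blue points, those of Bnip3l below them, and the remaining 6 genes overlap.

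Among the fusion genes, Mfn2 was the most abundant. This outer membrane GTPase (ENSMUSG00000029020, chromosome 4 of GRCm38, 147873599 to 147904704, minus strand) was measured at 143, 161 and 147 FPKM in WT replicates 1, 2 and 3 and at 160, 165 and 170 FPKM in Mc4r KO replicates 1, 2 and 3. WT replicate 2 lay within the Mc4r KO range, so the groups overlapped. Limma gave a log2 fold change of 0.13 (SE 0.09, adjusted p = 0.417).

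Mfn1, its close relative with the same membrane-joining role (ENSMUSG00000027668, chromosome 3, 32529465 to 32579239, plus strand), was measured at 55.1, 50.5 and 50.6 FPKM in the WT libraries and at 57.4, 65.4 and 57.8 FPKM in the Mc4r KO libraries. The groups did not overlap, although WT replicate 1 and Mc4r KO replicate 1 were close. The means were 52.1 ± 2.63 and 60.2 ± 4.52 FPKM (SD, n = 3), and the log2 fold change was 0.21 (SE 0.09, limma adjusted p = 0.237). The 95% interval reached from just above no change to a 1.33-fold higher level.

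Opa1, which fuses the inner membrane and shapes the cristae (ENSMUSG00000038084, chromosome 16, 29579334 to 29654884, plus strand), was measured at 33.8, 33.7 and 28.1 FPKM in the WT libraries and at 27.8, 30.0 and 28.0 FPKM in the Mc4r KO libraries. WT replicates 1 and 2 were the highest, and WT replicate 3 fell among the Mc4r KO libraries. The log2 fold change was -0.15 (SE 0.10, limma adjusted p = 0.418), and without WT replicate 3 it was -0.24 with an adjusted p of 0.0812.

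Of the fission genes, Dnm1l and Mff were measured at nearly equal levels in both groups. Dnm1l, the GTPase that pinches mitochondria apart (ENSMUSG00000022789, chromosome 16, 16312230 to 16358959, minus strand), had 26.3, 23.9 and 21.3 FPKM in the WT libraries and 22.1, 26.6 and 23.8 FPKM in the Mc4r KO libraries. The highest and the lowest of these were 1 library of each group, and the log2 fold change was 0.020 with a 95% interval from -0.24 to 0.28 (limma adjusted p = 0.942).

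Mff, the adaptor that brings this GTPase to the outer membrane (ENSMUSG00000026150, chromosome 1, 82724890 to 82752394, plus strand), had 12.2, 11.1 and 10.4 FPKM in the WT libraries and 11.3, 12.1 and 11.4 FPKM in the Mc4r KO libraries. The 3 Mc4r KO libraries lay inside the WT range. Its log2 fold change was 0.040 with an interval from -0.18 to 0.26 (limma adjusted p = 0.841). Both intervals lie well inside the call threshold.

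Fis1, an outer membrane protein linked to fission and to the regulation of mitophagy (ENSMUSG00000019054, chromosome 5, 136953275 to 136966234, plus strand), had 26.6, 33.1 and 33.5 FPKM in the WT libraries and 39.1, 36.9 and 36.9 FPKM in the Mc4r KO libraries. WT replicate 1 was the lowest of the 6, and every Mc4r KO library lay above all WT libraries. The means were 31.1 ± 3.90 and 37.7 ± 1.27 FPKM (SD, n = 3). The log2 fold change was 0.28 (SE 0.11, 95% interval 0.03 to 0.54, limma adjusted p = 0.200).

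The mitophagy genes held the clearest contrasts, and these ran in opposite directions for the paralogues Bnip3 and Bnip3l. Bnip3 (ENSMUSG00000078566, chromosome 7, 138890836 to 138909519, minus strand) was measured at 41.4, 39.8 and 27.4 FPKM in the WT libraries and at 47.1, 48.3 and 49.7 FPKM in the Mc4r KO libraries. The Mc4r KO libraries were close together and above all WT libraries, while WT replicate 3 lay well below the other WT libraries. The means were 36.2 ± 7.68 and 48.4 ± 1.30 FPKM (SD, n = 3), a log2 fold change of 0.44 (SE 0.16, 95% interval 0.07 to 0.81, limma adjusted p = 0.183). Its size rested on WT replicate 3, since without that library the log2 fold change was 0.25 (adjusted p = 0.0632). The summed atrial markers of 798 FPKM in that library stand beside its low Bnip3, and their part in the result was not tested.

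Bnip3l (ENSMUSG00000022051, chromosome 14, 66985239 to 67008877, minus strand) was measured at 17.9, 16.8 and 15.4 FPKM in the WT libraries and at 13.0, 12.1 and 12.4 FPKM in the Mc4r KO libraries. Every WT library lay above every Mc4r KO library. The means were 16.7 ± 1.27 and 12.5 ± 0.474 FPKM (SD, n = 3), and the log2 fold change was -0.41 (SE 0.09, 95% interval -0.62 to -0.20, limma adjusted p = 0.0843). This was the smallest p among the 10 genes. The adjusted p passed 0.05 in 3 of 22 alternative fits, at 0.0448 with limma voom on the recovered reads, 0.0350 with array weights and 0.0226 without WT replicate 3, and the fold change stayed under the call threshold in each of them. The log2 fold change was below 0 in all 22 alternative fits, between -0.61 and -0.25. Those that differ only in filter, trend, block, fold threshold or biotype cannot change it.

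Because Bnip3l is abundant in young red cells, the red cell content of the libraries is given beside it. Over 7 erythrocyte markers, the summed FPKM was 4498, 860 and 6345 in WT and 1652, 663 and 620 in Mc4r KO, led by the hemoglobin gene Hbb-bs, and the marker Slc4a1 was under 1 FPKM throughout. All 7 markers had a lower mean in the Mc4r KO group, although the groups overlapped in the sum. In the same order of replicates, Bnip3l was at 17.9, 16.8 and 15.4 FPKM in WT and at 13.0, 12.1 and 12.4 FPKM in Mc4r KO. None of the markers of the lists was called by limma. The 10 cardiomyocyte markers summed to 14588 to 15770 FPKM in the WT libraries and 17662 to 19295 FPKM in the Mc4r KO libraries, led by the cardiac actin Actc1. Without Actc1 these sums still did not overlap, at 9898 to 10300 and 10539 to 11295 FPKM. Of the 10, 7 had a higher mean in Mc4r KO, 3 of them without overlap, while 3 had a lower mean. The 7 fibroblast markers summed to 206 to 218 FPKM in the WT libraries and 153 to 179 FPKM in the Mc4r KO libraries, led by the proteoglycan gene Dcn. Without Dcn these sums overlapped, at 80.8 to 109 and 69.8 to 92.3 FPKM, and 5 of the 7 had a lower mean in Mc4r KO, 3 of them without overlap, while 2 had a higher mean. Over all genes tested, 14.1% were higher and 12.4% lower in Mc4r KO without overlap. In whole tissue, fewer cells of a type and less RNA per cell cannot be told apart, and the part of these markers in the differences of the 10 genes was not tested.

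**Figure D2:**
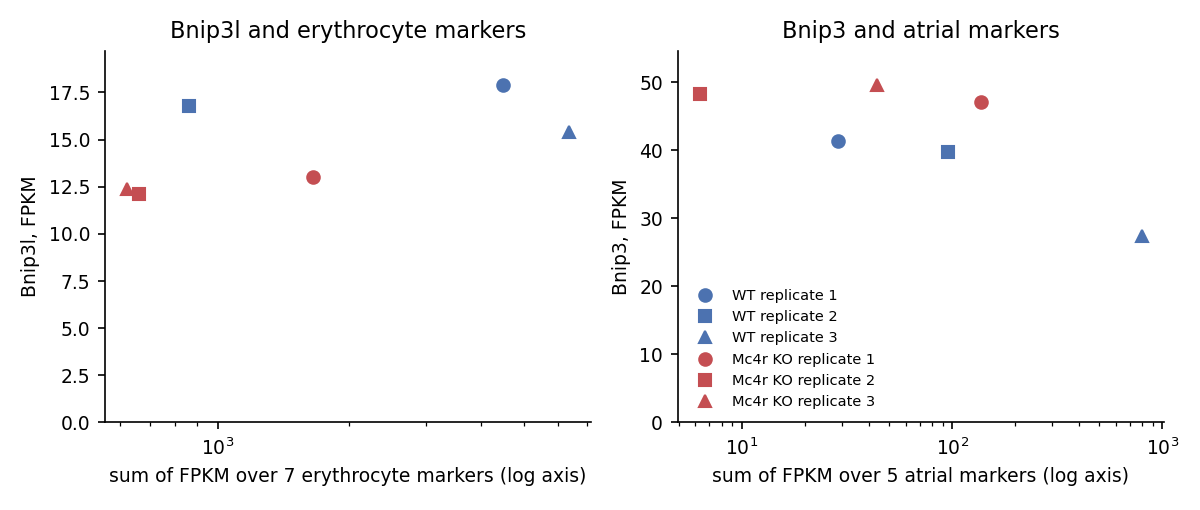
Bnip3l FPKM against the summed FPKM of 7 erythrocyte markers (left) and Bnip3 FPKM against the summed FPKM of 5 atrial markers (right), both marker axes logarithmic, 1 point per library with WT in blue and Mc4r KO in red. Bnip3l is at 15.4 to 17.9 FPKM in WT and 12.1 to 13.0 FPKM in Mc4r KO, while the erythrocyte marker sums of the groups overlap. WT replicate 3 is the point with the most atrial marker RNA and the least Bnip3.

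The ratio of Bnip3 to Bnip3l within a library does not depend on how libraries are scaled. In replicates 1, 2 and 3 it stood at 2.31, 2.37 and 1.78 for WT and at 3.62, 3.996 and 4.01 for Mc4r KO. All Mc4r KO libraries lay above all WT libraries. This was fixed in advance and is no further result, since every Mc4r KO library had more Bnip3 and less Bnip3l than any WT library. The gap was larger than the spread within either group, with means of 2.15 ± 0.326 and 3.88 ± 0.223 (SD, n = 3). The separation did not need WT replicate 3. On the log2 scale the groups differed by 0.86, a 1.81-fold higher ratio in the Mc4r KO hearts. The pair is alike in base composition, with 41.6% G and C in the longest protein-coding Bnip3 transcript and 41.9% in that of Bnip3l. The ratio was formed after the fold changes were known, and an exact permutation test of 3 against 3 libraries cannot give a two-sided p below 0.1, so no test is given.

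The other ratios between relatives overlapped between the groups. Mfn2 over Mfn1 was 2.60, 3.19 and 2.90 in WT and 2.78, 2.53 and 2.94 in Mc4r KO, with means of 2.90 ± 0.299 and 2.75 ± 0.208 (SD, n = 3). Fis1 over Dnm1l ranged from 1.01 to 1.57 in the WT libraries and from 1.39 to 1.77 in the Mc4r KO libraries. Mff over Dnm1l varied least, from 0.465 to 0.490 in the WT libraries and from 0.455 to 0.510 in the Mc4r KO libraries.

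**Figure D3:**
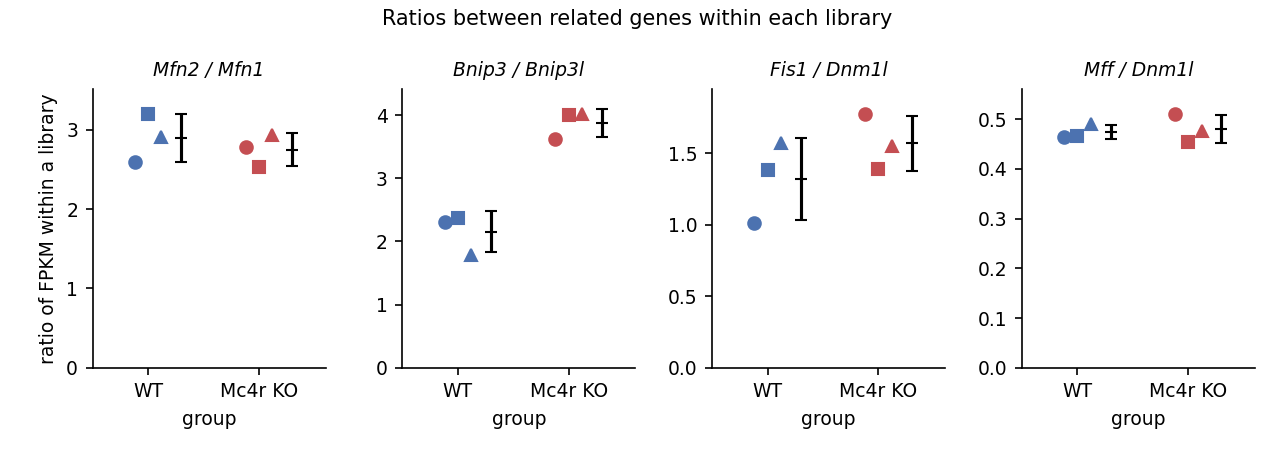
Ratio of FPKM between related genes within each library, with WT in blue, Mc4r KO in red, and the mean and SD of each group (n = 3) in black beside the points. The Bnip3 to Bnip3l ratio is 1.78 to 2.37 in WT and 3.62 to 4.01 in Mc4r KO, while the other 3 ratios overlap. The separation of the Bnip3 to Bnip3l ratio follows from the values of each gene, which do not overlap between the groups.

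Pink1, the kinase that starts ubiquitin-dependent mitophagy (ENSMUSG00000028756, chromosome 4, 138313409 to 138326307, minus strand), was the most abundant of the 10 genes. It was measured at 157, 186 and 215 FPKM in the WT libraries and at 217, 197 and 208 FPKM in the Mc4r KO libraries. The WT libraries spread widely, and WT replicate 3 lay among the Mc4r KO libraries. The log2 fold change was 0.17 (SE 0.13, limma adjusted p = 0.505).

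Fundc1, a mitophagy receptor of the outer membrane (ENSMUSG00000025040, chromosome X, 17556564 to 17572325, minus strand), was the least abundant. It had 13.5, 11.3 and 10.7 FPKM in the WT libraries and 11.2, 9.23 and 10.4 FPKM in the Mc4r KO libraries. WT replicate 1 was the highest and Mc4r KO replicate 2 the lowest, with overlap between. The log2 fold change was -0.20 (SE 0.12, limma adjusted p = 0.409).

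Several of these directions depended on how the libraries were scaled. When each library was scaled to its FPKM total without the mitochondrial chromosome, the median over all genes moved to a log2 fold change of -0.19, and Mfn2, Dnm1l, Mff and Pink1 were at -0.061, -0.17, -0.15 and -0.029. Under that scaling Bnip3 was at 0.25, Fis1 at 0.090 and Mfn1 at 0.013, while Opa1, Fundc1 and Bnip3l were at -0.35, -0.39 and -0.61. The groups then did not overlap for 2 of the 10 genes, Opa1 and Bnip3l, both lower in Mc4r KO, while those of Bnip3, Fis1 and Mfn1 did overlap. Fold changes also moved with base composition. Among genes of at least 10 FPKM, the median log2 fold change was -0.076 for those under 45% G and C, 0.049 for those from 45% to 50% and 0.22 for those of 50% and over. Pink1, Fis1 and Mfn2 are in the last class, with 59.0%, 54.4% and 53.1%, and Bnip3, Bnip3l, Opa1, Dnm1l and Fundc1 are in the class under 45%. When the trend with base composition was removed from each library, an alternative chosen after seeing the data, the log2 fold change of Bnip3 was 0.61 and that of Bnip3l -0.25, while Pink1 was at -0.066 and Fundc1 at 0.029.

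**Figure D4:**
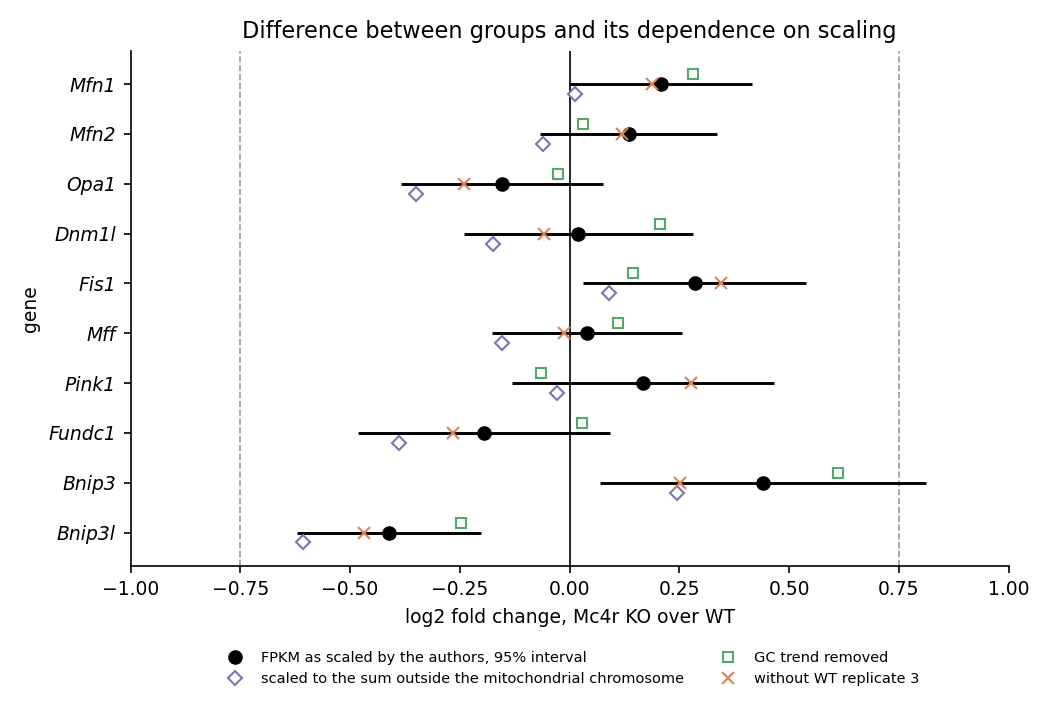
Log2 fold change of Mc4r KO over WT for the 10 genes, with black points and 95% intervals from limma, open symbols for 2 other scalings, crosses for the fit without WT replicate 3, and dashed lines at 0.75 in both directions. Bnip3 stays above 0 and Bnip3l below 0 in each fit shown, while Mfn2, Dnm1l, Mff, Pink1 and Fundc1 lie on both sides of 0.

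In order of mean FPKM over the 6 libraries, the 10 genes were Pink1 (197), Mfn2 (158), Mfn1 (56.1), Bnip3 (42.3), Fis1 (34.4), Opa1 (30.2), Dnm1l (24.004), Bnip3l (14.6), Mff (11.4) and Fundc1 (11.0). Pink1 ranked 182 and Fundc1 2957 among the 18035 genes. Pink1 exceeded Mfn2 in each of the 6 libraries, but their ranges overlapped. The steps from Mfn2 to Mfn1, from Mfn1 to Bnip3, from Opa1 to Dnm1l and from Dnm1l to Bnip3l held in each library without overlap of the ranges. Neighbours that overlapped were Bnip3 and Fis1, with Bnip3 higher in 5 of 6 libraries, Fis1 and Opa1 (4 of 6), Bnip3l and Mff (5 of 6), and Mff and Fundc1 (3 of 6). The low place of Mff depends on the length used. The authors divided by all 9757 exonic bases of the gene, whereas its longest protein-coding transcript has 2087 bases. With that length its level would be 53.4 FPKM, close to Bnip3 at 54.5. Where the reads of Mff fall within its exonic bases was not examined, so its true place is not known. Fis1 would move to 62.1 and Pink1 to 221 on this scale, which was chosen after seeing the data. Comparisons between the groups do not depend on the length.

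Some reads of Bnip3 and Bnip3l could belong to copies of these genes. In the GENCODE M21 transcripts, searched on both strands, 47.2% of the distinct stretches of 50 bases in Bnip3 also occur in 6 other genes, and 20.8% of those in Bnip3l occur in the pseudogene Bnip3l-ps. Among the 6 is Gm45507, with 15.9% of the stretches. It overlaps Bnip3 itself on the opposite strand, so these stretches need not be a copy, and 47.2% may overstate the copied part. Of the genes sharing at least 1% of the Bnip3 stretches, none had more than 6 reads in a library, against 1056 to 1806 reads on Bnip3. For Bnip3l-ps the WT libraries gave 46, 59 and 82 reads and the Mc4r KO libraries 51, 55 and 79, against 709 to 1011 on Bnip3l. How reads with several matches were counted is not stated, so the levels of both genes may be understated. The library kit named in the labels does not mark strand, and exons of the opposite-strand gene Gm45507 cover 22.3% of the exonic bases of Bnip3, with 0 reads on Gm45507 in all libraries. How reads on such shared bases were counted is not stated. The 0 reads therefore cannot tell whether Gm45507 is transcribed, and reads of Bnip3 on these bases may be missing.

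The promoter of Bnip3 is shown because Bnip3 is known as a HIF-1 target. RefSeq windows on GRCm38.p6, from 250 bases before to 50 bases after a start site, were at hand for 9 of the 10 genes, all but Bnip3l. The matches can therefore not be compared between Bnip3 and Bnip3l, and they do not bear on the opposite directions of these genes. The core letters of the HIF site, ACGTG and GCGTG, were searched on both strands. Bnip3 held 5 matches, of which the ACGTG pair is the same palindrome CACGTG read from either strand, and 1.66% of 32851 windows held as many. ACGTG was found in 19.6% of all windows and, of the 9 genes, in Bnip3 and Mfn2. GCGTG was found in 32.4% of all windows and in Bnip3, Dnm1l, Fis1, Mfn2 and Pink1. The matches in Bnip3 began 117, 108, 107, 99 and 35 bases before its start site. The 150 bases that end just before the first annotated exonic base of Bnip3, chr7:138909520-138909669 on the minus strand, are printed 5′ to 3′ with the matches of either strand in capitals.
Bnip3: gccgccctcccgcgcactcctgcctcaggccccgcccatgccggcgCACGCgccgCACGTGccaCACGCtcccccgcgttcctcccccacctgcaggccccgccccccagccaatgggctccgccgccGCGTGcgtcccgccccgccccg
The letters AAGGTCA, to which estrogen-related receptors bind, was in 4.72% of all windows and in none of the 9 genes. The core CCGGAAG of the ETS family was in 8.86% of all windows and in Dnm1l, Fis1 and Mfn1. These matches are letters in a window and not evidence of binding.

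Around the 10 genes, 74 further genes of mitochondrial fusion, fission, the PINK1 pathway, mitophagy receptors, and mitochondrial transport and contacts were read from the same fit. Of these, 72 were expressed enough to be tested, all but Gdap1 and Calcoco2, and 0 were called by limma. An unadjusted p under 0.05 was reached by 19 of the 72, with 18 higher and 1 lower in Mc4r KO, or 26.4% against 20.9% of all genes tested. The groups did not overlap for 33 of the 72, with 30 higher and 3 lower in Mc4r KO, beside 14.1% higher and 12.4% lower over all genes tested and 33.5% and 8.79% over those of at least 10 FPKM. The median log2 fold change was 0.14, and -0.06 with scaling outside the mitochondrial chromosome.

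The fission list of 15 tested genes held the smallest p of the 5 lists. Mtfp1, an inner membrane protein that promotes division, had 51.5, 52.4 and 65.0 FPKM in the WT libraries and 87.7, 95.9 and 86.1 FPKM in the Mc4r KO libraries, a log2 fold change of 0.68 (SE 0.11, limma adjusted p = 0.0554). Mief2, a receptor for the Dnm1l protein, had 8.46, 8.36 and 11.0 FPKM in the WT libraries and 13.0, 17.0 and 16.0 FPKM in the Mc4r KO libraries (log2 fold change 0.73, limma adjusted p = 0.0756). In both genes the 3 Mc4r KO libraries lay above the WT libraries, of which WT replicate 3 was the highest. Pgam5, a mitochondrial phosphatase that acts on Fundc1 and is also on the PINK1 list, had a log2 fold change of 0.44 (limma adjusted p = 0.0949). The fission list had 5 genes higher and 1 lower at an unadjusted p under 0.05, and its median log2 fold change was 0.13.

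In the PINK1 pathway list of 20 genes, 5 were higher and 0 lower at an unadjusted p under 0.05, a share near the 20.9% of all genes tested. Park7, which encodes the redox-sensitive protein DJ-1, had 30.6, 35.1 and 37.8 FPKM in the WT libraries and 50.002, 53.3 and 50.9 FPKM in the Mc4r KO libraries, without overlap (log2 fold change 0.58, SE 0.10, limma adjusted p = 0.0579). Rhot2, a GTPase that ties mitochondria to motor proteins, had a log2 fold change of 0.47 (limma adjusted p = 0.0721). Tomm7, whose protein helps to hold PINK1 at the outer membrane, was named after its values were seen. It had 14.1, 15.2 and 31.3 FPKM in the WT libraries and 33.0, 39.0 and 32.9 FPKM in the Mc4r KO libraries. WT replicate 3 was close to the Mc4r KO libraries, and the log2 fold change was 0.88 (limma adjusted p = 0.154) with it and 1.24 (adjusted p = 0.00498) without it. Without WT replicate 3, limma called 4 of the related genes, Tomm7, Mtfp1, Mief2 and the protease gene Htra2, all higher in Mc4r KO, where the same fit called 2.81% of all genes as higher.

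Among 15 tested mitophagy receptors and adaptors, 4 were higher and 0 lower at an unadjusted p under 0.05. They were led by the receptor genes Bcl2l13 (log2 fold change 0.42, limma adjusted p = 0.0840), Nlrx1 (0.47, adjusted p = 0.106) and Phb2 (0.34, adjusted p = 0.172), each without overlap between the groups. Of 18 genes for fusion and inner membrane shape, 3 were higher and 0 lower at an unadjusted p under 0.05. These were the prohibitin genes Phb2 and Phb (log2 fold change 0.31, limma adjusted p = 0.156) and the inner membrane protease gene Afg3l2 (0.22, adjusted p = 0.234). In the list of 11 transport and contact genes the median was 0.17, with 4 genes higher and 0 lower at an unadjusted p under 0.05. Besides Rhot2 it was led by Rmdn3, which tethers mitochondria to the endoplasmic reticulum (0.41, limma adjusted p = 0.161), and the motor adaptor gene Trak1 (0.24, adjusted p = 0.186). The counts of these 3 lists stand beside the same 20.9% of all genes. Under scaling outside the mitochondrial chromosome, the log2 fold changes were 0.048 for Trak1, 0.22 for Rmdn3, 0.27 for Rhot2, 0.020 for Afg3l2, 0.11 for Phb, 0.15 for Phb2, 0.23 for Bcl2l13 and 0.28 for Nlrx1. In the fission and PINK1 lists they were 0.49 for Mtfp1, 0.53 for Mief2, 0.25 for Pgam5 and 0.38 for Park7. With the GC trend removed, Trak1 was at 0.054, Afg3l2 at 0.13, Phb at 0.14, Phb2 at 0.15, Nlrx1 at 0.26 and Rhot2 at 0.31.

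**Figure D5:**
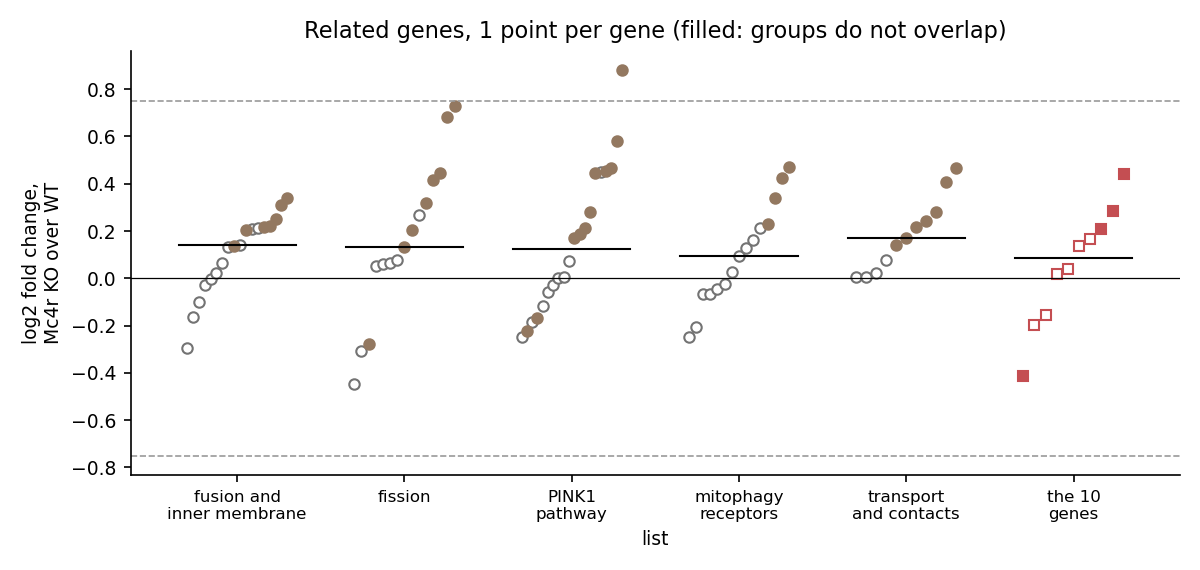
Log2 fold change of Mc4r KO over WT for the tested genes of the 5 related lists (circles) and the 10 genes (red squares), with filled symbols where the 3 Mc4r KO values do not overlap the 3 WT values, a line at each list's median and dashed lines at 0.75 in both directions. The medians of the 5 lists lie between 0.095 and 0.17, and the filled square below 0 is Bnip3l at -0.41.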

How the data were processed

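Polyadenylated RNA from 6 hearts was sequenced in paired ends. The authors aligned the reads with HISAT2 2.0.5 to mm10, as the labels list, counted them on genes with featureCounts and deposited FPKM per gene and library. The annotation release is not given in the sources used here, and the exonic lengths of the 10 genes equal those of GENCODE M21. Multiplied by gene length, 100% of the deposited FPKM were whole multiples of a step particular to the library, which gave the reads back. The tolerance was 0.01 read, and grew in proportion to the count for high counts. In the table, 27 symbols damaged by a spreadsheet were read from their identifiers.

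Groups were compared with limma 3.58.1 in R 4.3.3 on log2(FPKM + 0.1), which understates the fold changes of low genes, with the empirical Bayes trend, 3 WT against 3 Mc4r KO, two-sided, with Benjamini-Hochberg adjustment over the 18035 genes whose mean FPKM was 0.1 or more. Median-of-ratios factors of the deposited values were the same in every library, at 1.006. The deposited values thus already carry such a scaling, and applying it left them as deposited. The base of the study's fold change threshold is not stated and was taken as 2. The 10 genes, the 5 related lists and the marker lists were chosen with earlier results of these data known. Named genes are all 10, called genes of the related lists, the 3 of each list with the smallest p, and the leading gene of a marker list. The script was tested on simulated data. Alternatives covered pseudocount, filter, scaling, weights, trend, block, voom on recovered reads, fold threshold, biotype, a covariate and each library left out. Figures were drawn with matplotlib 3.10.9. All per-library columns were matched to a library. Values of a few individual genes are left out of the text.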

Additional observations from a re-analysis of the deposited data

How the results depend on the processing

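None of the 10 genes was called in any of the 22 alternatives. Bnip3, Fis1, Mfn1 and Bnip3l kept their direction in all 22, and 204 of 220 fold changes of the 10 genes did so. Part of this agreement was fixed in advance. Fits that differ only in filter, trend, robust empirical Bayes, block, fold threshold or biotype give the fold changes of the main fit. The fit on values as deposited does so too. The log2 fold change of Bnip3 ranged from 0.25 to 0.91, the latter with the mitochondrial share as a covariate. Quantile normalization gave log2 fold changes of -0.064 for Mfn2, -0.11 for Dnm1l, -0.056 for Mff and -0.055 for Pink1, and scaling outside the mitochondrial chromosome gave -0.061, -0.17, -0.15 and -0.029. With the mitochondrial share as a covariate Opa1 was at 0.085 and Pink1 at -0.15, with array weights Dnm1l was at -0.0066, and with the GC trend removed Pink1 was at -0.066 and Fundc1 at 0.029. With 1 library left out, Dnm1l ranged from -0.058 (without WT replicate 3) to 0.091 and Mff from -0.013 (without WT replicate 3) to 0.098. Without Mc4r KO replicate 2, Dnm1l was at -0.050. Of the 10 genes, those without overlap numbered 2 under quantile normalization (24.9% of all genes), 2 with scaling outside the mitochondrial chromosome (28.8%), 6 with the GC trend removed (26.8%), and 4 to 7 with 1 library left out (33.4% to 45.1%), the 7 and the 45.1% without WT replicate 3. Related genes called numbered 2 with array weights and 0 to 4 with 1 library left out.

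Over all genes, calls numbered 44 with a pseudocount of 1, 22 without a filter, 147 with a mean of at least 1 FPKM, 49 with quantile normalization, 41 with scaling outside the mitochondrial chromosome (16 higher and 25 lower, against 57 and 26), 21 without the trend, 435 with array weights, 317 with limma voom, 204 in protein-coding genes, 2 with the mitochondrial share as a covariate, and 7 to 726 with 1 library left out. The cause of these shifts was not tested. With the replicate number as a block there were 11 calls. Deviations of same-numbered libraries correlated at -0.14, 0.0074 and -0.082 over 11297 genes, and those of differently numbered libraries at -0.032 to 0.11. These values show no pairing by number, but they cannot tell whether the mice were paired. Depth limits Fundc1 most, at 330 to 447 reads per library.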
